A study of Caenorhabditis elegans with 2 samples.

Results

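The genes described here are the 8 that encode the subunits of the Caenorhabditis elegans DREAM complex: lin-35, efl-1, dpl-1, lin-9, lin-37, lin-52, lin-53 and lin-54. They were read out of 19973 protein-coding genes on the nuclear chromosomes, and all 8 were found by gene name in the WBcel235 annotation. The list was chosen on measured values of these same peak lists, since peaks at several of the genes were already known when it was drawn up, so the presence and height of those peaks are a description and carry no test. Every peak whose summit lay between 2000 bp upstream of the annotated gene start and the gene end was read in all 8 deposited peak lists, and that stretch is called the gene's window.

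The experiment was a chromatin immunoprecipitation with sequencing (ChIP-seq) of the protein of Y79H2A.3 in whole young adults, 63 hours old. The worms were of strain RW12273, which carries st12273[Y79H2A.3::TY1::EGFP::3xFLAG] on chromosome III, a CRISPR insertion that fuses a TY1, EGFP and 3xFLAG tag to the protein. They were synchronised by starving L1 larvae after bleaching, and sonicated chromatin was precipitated with an antibody against GFP. There was 1 group, with 2 biological replicates, both tagged; no untagged strain, input or second condition was analysed here, and whole animals mix the chromatin of all tissues.

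DREAM is a repressor complex that binds promoters of cell-cycle and germline genes. LIN-35, the only worm protein of the retinoblastoma pocket family, bridges the E2F and DP subunits EFL-1 and DPL-1 and the MuvB core, which is made of LIN-9, LIN-37, LIN-52, LIN-53 and LIN-54. EFL-1 with DPL-1 and LIN-54 are the subunits that touch DNA, and the genes were first known as class B synthetic multivulva (synMuv) genes, whose loss gives extra vulval tissue only together with loss of a class A gene.

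Sequences are shown for the parts of the thresholded peaks on chromosomes III and IV that lie outside annotated exons. Also shown is the stretch just before the start of the genes that had no thresholded peak. The sequences differ in length, from 225 bp for lin-9 to 60 bp for lin-37, so their capitals cannot be compared. All are from the RefSeq copy of WBcel235, the assembly also called ce11, and run 5′ to 3′ on the strand of the named gene. Capitals mark 3 kinds of word searched on both strands: an E2F-type word (TTCCCGC, the variant TTCGCGC, the variant TTGCCGC or the variant TTGGCGC), a word of the cell-cycle homology region (CHR), the element that LIN-54 binds (TTTGAA or the variant TTCGAA), and the 6-mer CGCGCC. A word on the other strand appears as its reverse complement, so that TTTGAA is then read as TTCAAA. The 6-mer can overlap an E2F-type word, and in the lin-54 sequence the word GGCGCG shares bases with the word GCGCGAA. The part of the lin-9 peak outside exons is chrIII:8904132-8904356 (minus strand), and those of the lin-52 peaks are chrIII:9825433-9825602 and chrIII:9824751-9824876 (minus strand). The part of the lin-54 peak outside exons is chrIV:13240652-13240786 (plus strand), 392 to 258 bp upstream, and it does not hold the summit, which lies 405 bp upstream in an exon of rpl-12. The full extent of each peak is given with its values. The stretches without a thresholded peak are chrV:16965676-16965825 (minus strand) for efl-1, chrII:9169777-9169909 (plus strand) for dpl-1 and chrIII:7072553-7072612 (minus strand) for lin-37. Words of the same kinds lie just upstream of these 3 stretches and are not shown. They are TTCCCGC 228 bp before efl-1, and TTCAAA 237 bp and GGCGCG 245 bp before dpl-1. Before lin-37 they are TTCGAA at 204 bp and TTCAAA at 129 bp.
lin-9 peak, part outside exons, holds the summit 78 bp upstream: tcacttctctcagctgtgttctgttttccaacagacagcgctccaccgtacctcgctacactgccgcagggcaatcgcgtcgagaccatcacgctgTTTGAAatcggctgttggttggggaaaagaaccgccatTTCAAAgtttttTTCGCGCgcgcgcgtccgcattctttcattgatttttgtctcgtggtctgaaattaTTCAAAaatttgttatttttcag
lin-52 distal peak, part outside exons, holds the summit 705 bp upstream: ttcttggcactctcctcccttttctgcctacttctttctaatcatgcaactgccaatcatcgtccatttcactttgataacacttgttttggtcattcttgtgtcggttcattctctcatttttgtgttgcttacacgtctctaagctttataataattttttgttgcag
lin-52 proximal peak, part outside exons, holds the summit 73 bp upstream: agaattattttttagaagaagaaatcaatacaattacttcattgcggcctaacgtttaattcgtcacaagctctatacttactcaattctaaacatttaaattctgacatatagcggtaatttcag
lin-54 peak, part outside exons, without the summit: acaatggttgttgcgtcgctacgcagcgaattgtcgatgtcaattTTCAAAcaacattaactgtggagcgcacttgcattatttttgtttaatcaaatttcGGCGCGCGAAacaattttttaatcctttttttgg
efl-1 upstream: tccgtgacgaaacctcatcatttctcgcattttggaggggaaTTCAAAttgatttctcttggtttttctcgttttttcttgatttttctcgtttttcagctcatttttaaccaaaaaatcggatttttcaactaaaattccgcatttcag
dpl-1 upstream: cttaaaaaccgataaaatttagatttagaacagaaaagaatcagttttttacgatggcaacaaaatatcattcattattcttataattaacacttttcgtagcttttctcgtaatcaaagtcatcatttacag
lin-37 upstream: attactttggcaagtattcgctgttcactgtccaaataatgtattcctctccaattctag

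The main list was the conservative one, which holds 1021 peaks that passed a threshold on the comparison of the replicates. In it, 5 of the 8 DREAM genes had a summit in their window: lin-35, lin-9, lin-52, lin-53 and lin-54, with 6 peaks between them. Over all protein-coding genes the share was 5.29% in this list. The thresholded list of the pooled reads had a summit at 4 of the 8 genes (lin-35, lin-9, lin-52 and lin-53), beside 4.84% of protein-coding genes. The list of replicate 1 alone had one at 3 (lin-35, lin-9 and lin-53), beside 2.46%, and that of replicate 2 alone at 2 (lin-9 and lin-53), beside 2.20%. Thus lin-9 and lin-53 were present in all 4 thresholded lists, while efl-1, dpl-1 and lin-37 were in none of them.

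The same 5 genes had a conservative summit in the upstream 2000 bp, where the share of protein-coding genes was 3.47%, and within 1000 bp upstream to 200 bp downstream of one of their transcript starts, where it was 2.88%. Windows of the 8 genes were between 2668 bp (lin-52) and 9929 bp (lin-35) long, against a median of 4027 bp over protein-coding genes. Ranked lists, which keep weak peaks, filled nearly every window: all 8 genes had a summit in the ranked list of the replicate comparison, as did 87.5% of protein-coding genes. Those 8 windows held 50 such summits, from 3 in that of lin-37 to 8 in those of lin-35 and lin-54. The median over protein-coding genes was 4 per window, not matched for window length, so no excess is read from these counts.

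Peak height is given as the deposited signal value, a height on a scale that is not stated, and is compared only within a list. At 1018 of the 1021 conservative peaks, the coordinates and the value recur in the ranked list of the pooled reads, so a conservative height is that of the pooled reads. The ranked list of the replicate comparison adds a value for each replicate in 2 unlabelled columns. The first recurs in the list of replicate 1 at 1013 conservative peaks and the second in that of replicate 2 at 1014. Ranked lists also give the −log10 of the global irreproducible discovery rate (IDR), which is high for peaks that rank high in each of the sets compared, and every conservative peak had 2.00 or more, an IDR of 0.01. No read counts are in the lists, so the depth is unknown and no counting error can be given.

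**Figure D1:**
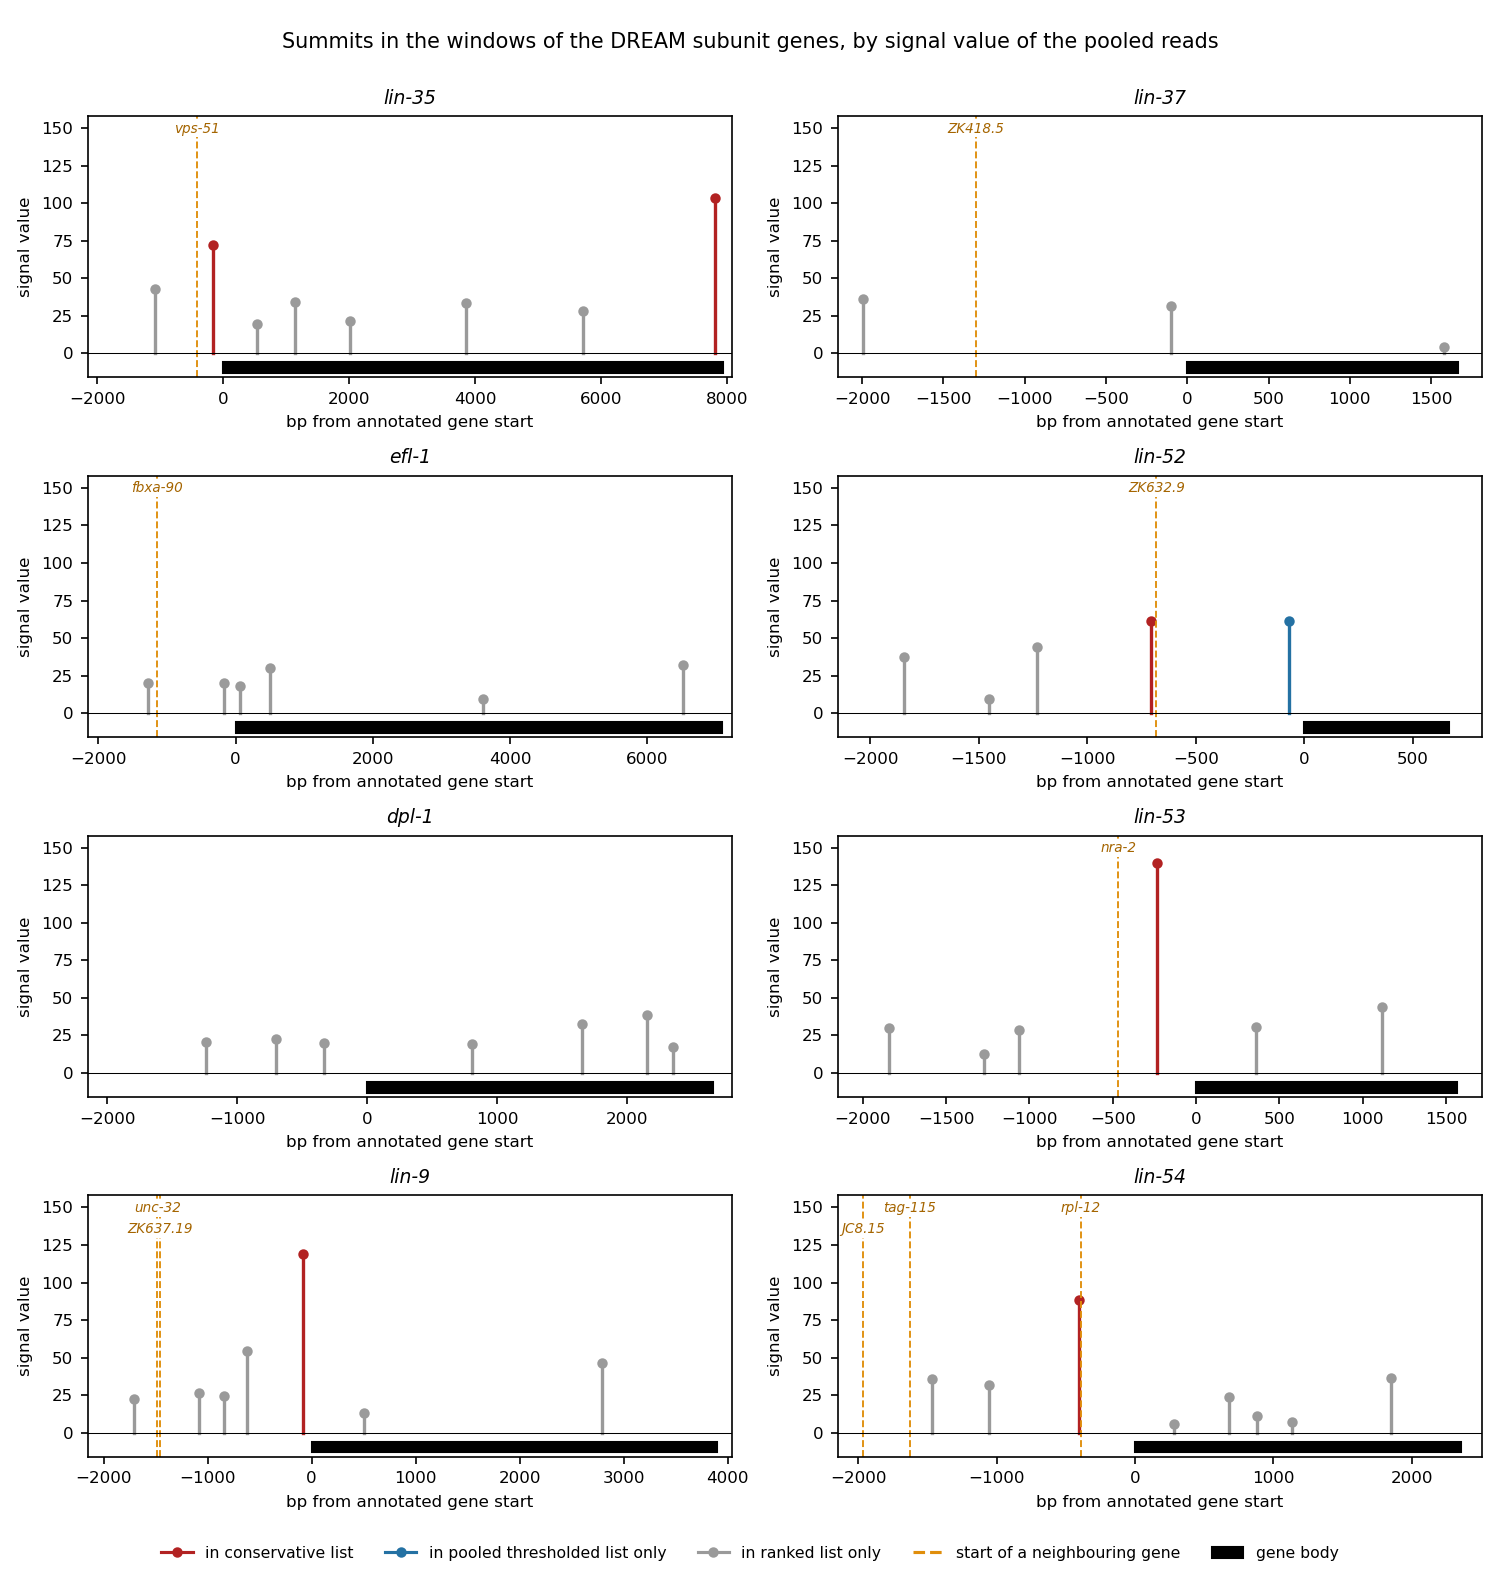
Each panel plots the summits of 1 DREAM gene in the ranked list of the replicate comparison, with distance from the annotated gene start in bp across and the signal value of the pooled reads upward; red stems are also in the conservative list, blue in the pooled thresholded list only and grey in ranked lists only, dashed lines are starts of neighbouring genes and the black bar is the gene. The red stems reach from 61.4 at lin-52 to 140.1 at lin-53, and the panels of efl-1, dpl-1 and lin-37 hold only grey stems, none above 38.8.

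The pocket protein gene lin-35 lies at 5807709 to 5815637 of chromosome I on the plus strand and had 2 conservative peaks, at opposite ends of the gene. The taller, at 5815364 to 5815659, had its summit 7803 bp past the start, in the 3′ UTR. Its height was 103.4, and the replicates gave 49.2 and 47.0 (mean 48.1 ± 1.54 SD, n = 2), a 1.05-fold difference with their summits 1 bp apart. That peak was in the conservative, pooled and replicate 1 lists, and in the replicate 2 ranked list its −log10 IDR of 1.75 fell below the threshold. The convergent gene hmg-3, which encodes a subunit of the FACT histone chaperone, overlaps the last 29 bp of lin-35, and its start, the nearest, is 2620 bp away.

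The smaller lin-35 peak, at 5807401 to 5807696, had its summit 160 bp upstream of the start, in the 417 bp between lin-35 and the divergent gene vps-51, which encodes a vesicle tethering subunit. It was 72.4 high, with 37.5 in replicate 1 and 39.8 in replicate 2 (mean 38.6 ± 1.66 SD, n = 2). The replicates were close in height, but their summits lay 98 bp apart, the widest gap among these peaks. Of the thresholded lists, the conservative one alone held it, with a −log10 IDR of 2.53 in the replicate comparison and 1.87 in the pooled reads. The 6 weaker summits in the window, all in the ranked list only, ran from 19.3 to 42.6. Those 1138 and 2008 bp past the start, 34.5 and 21.6 high, also lie inside the antisense gene C32F10.4, so they cannot be given to lin-35 alone.

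The E2F gene efl-1, at 16958590 to 16965675 of chromosome V on the minus strand, had no thresholded peak. Its tallest summit in the ranked list of the replicate comparison was 31.9, in an intron 6516 bp past the start, with replicate columns of 13.8 and 18.9. Neither value recurs at an efl-1 summit in the ranked list of its replicate. The ranked list of the pooled reads lacks that summit, and its tallest at efl-1 was 29.8, 495 bp past the start. The summit nearest upstream, 175 bp before the start and next to the efl-1 sequence shown, was 20.3 high, with 9.77 and 8.16. The tallest ranked summit of efl-1 stood at the 44.0th percentile of all protein-coding genes, between the quartile signal values of 24.4 and 44.1. A taller summit, 48.3 high, lay 2285 bp upstream in an intron of fbxa-90 and was left out, so this placing holds for the window used. The F-box gene fbxa-90 starts 1139 bp upstream on the other strand.

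The DP gene dpl-1, at 9169910 to 9172565 of chromosome II on the plus strand, likewise had no thresholded peak. Its tallest ranked summit, 38.8, lay 2152 bp past the start in a coding exon, with replicate columns of 12.02 and 26.84. The same pair of replicate values is also listed at a summit of 17.5 that lies 2353 bp past the start, so the columns do not separate these summits. Upstream of dpl-1 the summits 337, 704 and 1244 bp before the start were 19.7, 22.4 and 20.6. The antisense gene T23G7.2 spans the whole of dpl-1 and these upstream summits as well. A ChIP peak has no strand, so no summit in dpl-1 or among those upstream can be given to one of the 2 genes. The gene's tallest ranked summit was at the 63.3rd percentile of protein-coding genes.

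Among the MuvB core genes, lin-9 had a peak that passed in each replicate alone and whose nearest start was its own. The gene lies at 8900237 to 8904131 of chromosome III on the minus strand, and the peak, at 8904061 to 8904356, had its summit 78 bp upstream. Its height was 118.9, and the replicates gave 65.98 and 54.93 (mean 60.5 ± 7.82 SD, n = 2), with summits 32 bp apart. The peak was in all 4 thresholded lists, ranking 184 of 1021 in the conservative list, 123 of 442 in replicate 1 and 276 of 393 in replicate 2. The nearest other starts, those of a noncoding RNA gene, ZK637.19, and of unc-32, a proton pump subunit gene, lie 1457 and 1484 bp upstream. A second summit, 623 bp upstream, was 54.2 high, with 32.8 in replicate 1 and 16.3 in replicate 2, and did not pass the threshold.

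The gene lin-37, at 7070890 to 7072552 of chromosome III on the minus strand, had no thresholded peak. A summit 100 bp upstream of its start, in the 3′ UTR of the same-strand neighbour ZK418.5, was 31.5 high, with 14.0 and 26.3 in the replicate columns. Only 60 bp separate the genes, and those 60 bases are the lin-37 sequence shown. The tallest summit of the lin-37 window, 36.3, lay 1994 bp upstream and was the outermost taken in. It fell in a coding exon of another gene, and its nearest start was that of ZK418.5, 695 bp away. Across the upstream limit, the nearest left out was a lin-54 summit 2005 bp upstream, 16.3 high. The nearest thresholded peak left out lay 2751 bp upstream of lin-53, was 88.3 high and had its nearest start at T05F1.2, 102 bp away.

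The window of lin-52, at 9824083 to 9824750 of chromosome III on the minus strand, held 2 thresholded peaks of nearly equal height that were in different lists. The distal one, at 9825307 to 9825602, had its summit 705 bp upstream and was 61.4 high, with 36.5 and 32.1 in the replicates (mean 34.3 ± 3.13 SD, n = 2). Of the thresholded lists, it was in the conservative one only, where it ranked 914 of 1021, and its −log10 IDR of 2.06 was just inside the threshold. The summit was 23 bp upstream of the start of ZK632.9, which lies between it and lin-52 on the same strand. The proximal peak, at 9824675 to 9824970, had its summit 73 bp upstream of lin-52, in the 126 bp between the genes, and was also 61.4 high. Replicate 1 gave 43.4 and replicate 2 gave 20.4 (mean 31.9 ± 16.3 SD, n = 2), a 2.13-fold difference. It passed in the pooled reads with a −log10 IDR of 2.21 but had 0.838 in the replicate comparison. Because the replicates differ this much, the heights do not show which of the 2 lin-52 peaks is the stronger.

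The tallest peak of the 8 genes was at lin-53, which encodes a histone-binding protein of the RbAp48 family and lies at 9618196 to 9619760 of chromosome I on the minus strand. The peak, at 9619846 to 9620141, was 140.1 high and ranked 114 of 1021. Replicate 1 gave 54.9 and replicate 2 gave 86.7 (mean 70.8 ± 22.5 SD, n = 2), with summits 11 bp apart. Its −log10 IDR was 4.13, the highest among the 8 genes, and it ranked 217 of 442 in replicate 1 and 72 of 393 in replicate 2. The summit is in the 466 bp between lin-53 and the divergent gene nra-2, a nicalin homologue, 234 bp from the start of lin-53 and 233 bp from that of nra-2, so the position does not assign it to either.

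The DNA-binding subunit gene lin-54 lies at 13241044 to 13243401 of chromosome IV on the plus strand. Its conservative peak, at 13240491 to 13240786, was 88.5 high with the summit 405 bp upstream. The summit fell in the 5′ UTR of the divergent gene rpl-12, which encodes a protein of the large ribosomal subunit, 12 bp past the rpl-12 start; only 392 bp separate the genes, so these values are also those of rpl-12. Replicate 1 gave 29.5 and replicate 2 gave 46.8 (mean 38.2 ± 12.2 SD, n = 2). Of the thresholded lists, it was in the conservative one only, with a −log10 IDR of 2.28 in the replicate comparison and 1.91 in the pooled reads. In replicate 1 alone it was not the tallest summit of the window: a summit 1112 bp upstream, in a coding exon of rpl-12, reached 32.3. In replicate 2 it was the tallest, but a summit 1411 bp upstream, in the rpl-12 3′ UTR, reached 42.0. The −log10 IDR of that summit in replicate 2 was 1.11, above the 0.986 of the conservative peak, and both were below the threshold. Farther upstream, tag-115 and the snoRNA gene JC8.15 start 1630 and 1967 bp from lin-54.

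By nearest annotated start, lin-9 and lin-35 were the only genes of the 8 with a conservative peak of their own; those of lin-52, lin-53 and lin-54 were nearer to the starts of ZK632.9, nra-2 and rpl-12. The lin-53 peak passes to nra-2 by a single base. The upstream lin-35 peak is nearer to lin-35 in the pooled reads, but its replicate 2 summit lay 252 bp from the lin-35 start and 166 bp from that of vps-51, so in that replicate the nearest start was vps-51. Of all conservative summits, 188 (18.4%) lay between 2 divergent protein-coding genes, as those at lin-35 (upstream), lin-9 and lin-53 did. The lin-35 peak at the 3′ end belongs to a different kind: 182 conservative summits (17.8%) were within 200 bp of the end of a protein-coding gene and over 1000 bp from any such gene's start.

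**Figure D2:**
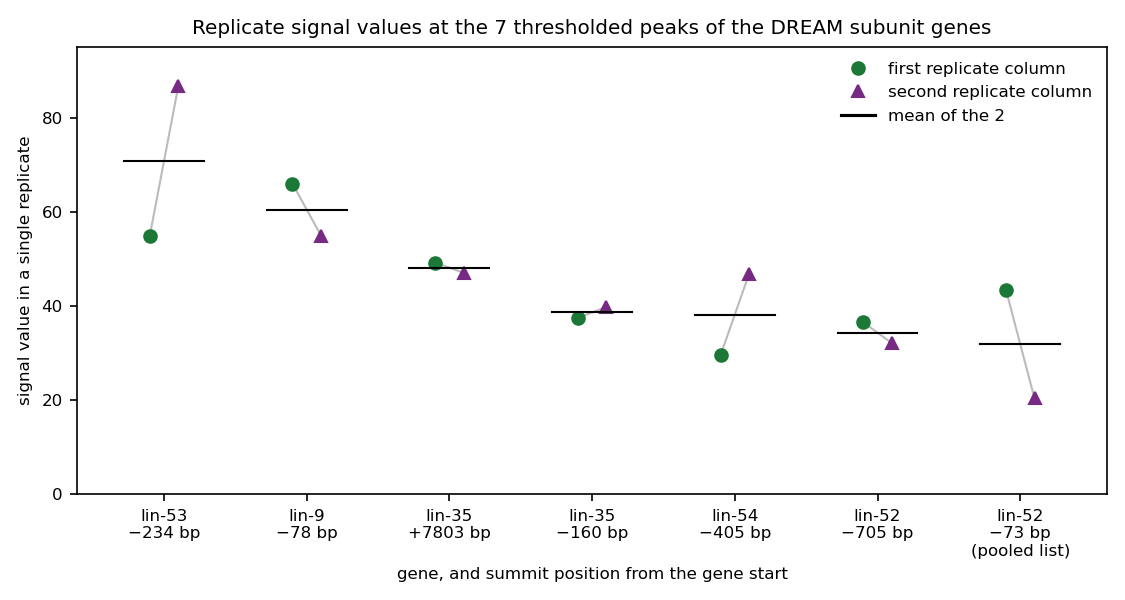
For the 7 thresholded peaks of the DREAM genes, the signal value in each single replicate is plotted upward (circles, first replicate column; triangles, second) with the mean as a bar, and the peaks are ordered by that mean. The lin-53 values, 54.9 and 86.7, lie far apart while those of lin-35 at 7803 bp, 49.2 and 47.0, nearly meet; the lin-52 peak 73 bp upstream has the widest fold.

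In height, the lin-53 and lin-9 peaks were above the upper quartile of the conservative list (105), and the lin-35 3′ peak at 103.4 and the lin-54 peak at 88.5 lay between that and the median (82.9). The upstream lin-35 peak, at 72.4, was next to the lower quartile (72.0), and the lin-52 peak was below it. The order of single-replicate values was different: lin-9 led in replicate 1 and lin-53 in replicate 2, so these neighbours in the order of means changed places between the replicates. Among the lower peaks, lin-54 was below the upstream lin-35 and distal lin-52 peaks in replicate 1 and above them in replicate 2.

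The 2 replicate values differed by a median of 1.24-fold over all conservative peaks, and by no more than 1.81-fold in 95% of them. The 6 conservative peaks of the DREAM genes ranged from 1.05-fold at lin-35 to 1.59-fold at lin-54, within that span. The direction was not shared: the second replicate was higher at lin-53, lin-54 and lin-35 (upstream), and lower at lin-9, lin-52 (distal) and lin-35 (3′ end). The proximal lin-52 peak, at 2.13-fold, was beyond the span. That span is from peaks that passed the replicate comparison, which this peak did not, so nothing is read from its place outside.

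**Figure D3:**
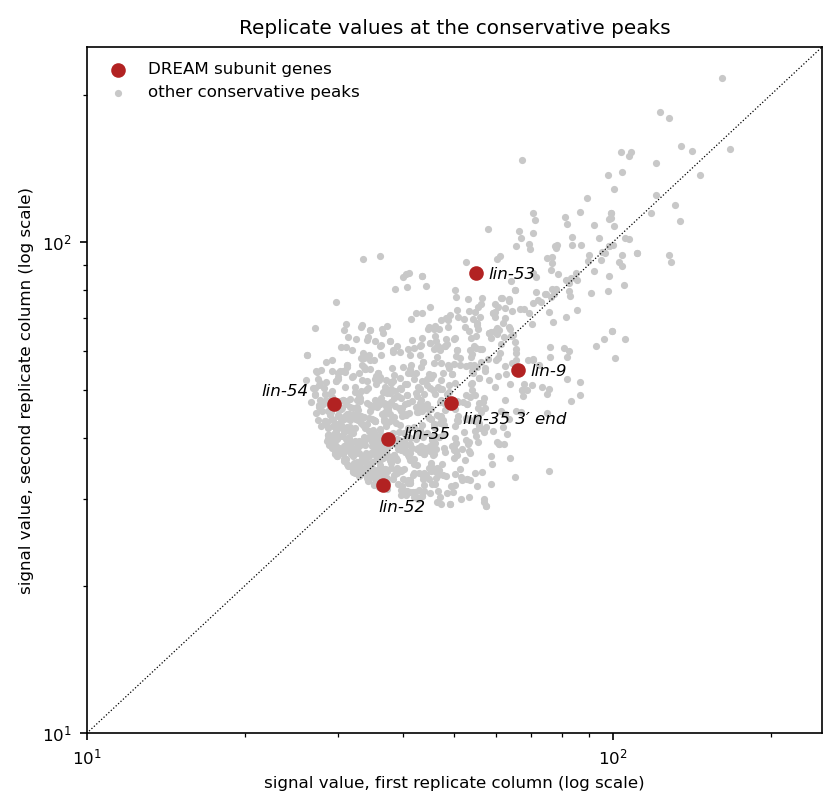
Each point is 1 conservative peak, with the first replicate column across and the second upward on log scales; red points are the 6 peaks of the DREAM genes, grey points all others, and the dotted line marks equal values. The lin-53 and lin-54 points lie above the line and lin-9 below it, all within the grey cloud, and lin-52 sits at its lower edge.

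The tallest ranked summit of each of the 5 genes with a conservative peak and the 3 without was placed among all protein-coding genes. This is a description, since the lists are the ones that chose the genes. A conservative peak ranks high in both replicates by its selection, so a gap between the 2 sets follows from the filter and supports nothing further. In the replicate comparison the 5 lay between the 92.1st (lin-52) and the 99.3rd (lin-53) percentile and the 3 between the 44.0th (efl-1) and the 63.3rd (dpl-1). In replicate 1 the 5 lay between 92.0 (lin-54) and 99.2 (lin-9) and the 3 between 37.2 (lin-37) and 46.1 (efl-1). In replicate 2 the 5 lay between 87.2 (lin-52) and 99.6 (lin-53) and the 3 between 59.2 (efl-1) and 74.5 (dpl-1), a narrower gap.

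Genes with the most similar pair of replicate values, among those in the same thresholded lists, were looked up for each of the 5 genes, by the distance of the log2 tallest value in the window in replicate 1 and replicate 2. For lin-52 and lin-54 these tallest values belong to different summits in the 2 replicates, so their pairs are not values of a single peak. The lin-52 pair joins 43.4 at the proximal peak in replicate 1 to 32.1 at the distal peak in replicate 2, and the lin-54 pair joins 32.3 at the summit 1112 bp upstream in replicate 1 to 46.8 at the conservative peak in replicate 2. For lin-9 they were zyg-11, with 64.3 and 56.7 (distance 0.06), and T22D1.8, with 62.8 and 54.0 (0.08). For the window of lin-52 they were D2030.12 (0.04) and puf-11 (0.06). For the other 3 a single peak served 2 genes: mpk-2 and C04G6.11, with 50.1 and 47.5, for lin-35 (0.03); rps-24 and T07A9.14, with 52.6 and 91.2, for lin-53 (0.10); and glt-6 and R05G6.5, with 31.7 and 46.3, for the window of lin-54 (0.03). The search took in 165 (lin-35) to 273 (lin-52) candidate genes and rests on 2 samples.

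The sequence under the summits was not used to choose the genes. Within 50 bp of the summit, an E2F-type word was present at 2 of the 7 thresholded peaks, those of lin-9 and lin-54, beside 11.5% of all conservative summits. A CHR word was present at 3 (lin-9, lin-53 and the lin-35 3′ end), beside 25.07% of them, and CGCGCC at none, beside 10.4%. In lin-9 the first base of TTCGCGC was 79 bp upstream, next to the summit at 78 bp, with a CHR word 91 bp upstream. In lin-54 the word was TTGGCGC, 419 bp upstream and inside the rpl-12 5′ UTR, outside the sequence shown. The lin-35 3′ window held 4 CHR words.

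In the 300 bp from 250 bp upstream to 50 bp downstream of the start, an E2F-type word was present in 3 of the 8 genes (efl-1, lin-9 and lin-53), beside 9.20% of protein-coding genes. A CHR word was in 6 of the 8, beside 68.9%, and CGCGCC in 1, dpl-1, beside 4.59%. The dpl-1 words of both kinds lie in an exon of T23G7.2, and the lin-37 CHR words in the 3′ UTR of ZK418.5. The word in efl-1, TTCCCGC, is 228 bp upstream, so a start without a thresholded peak held one too. A match is a run of letters and was not examined for binding.

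Base composition at the 7 summits was spread out. GC content within 50 bp was 54.5% at lin-53 and 51.5% at lin-54, above the upper quartile of conservative summits (50.5%), and 25.7% at the lin-35 3′ end and 27.7% at the proximal lin-52 peak, below the lower quartile (36.6%). The lin-9 summit, at 46.5%, and the upstream lin-35 summit, at 44.6%, were near the median of 43.6%. All 266 overlapping 31-base words in each of the 7 peaks occurred once in the reference genome, so none of these peaks lies in exactly repeated sequence of that length.

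Related genes were counted from lists of the same pathways. Against 5 of the 8 DREAM genes, a summit was in the window of 0 of 11 other class B synMuv genes, 1 of 4 class A genes, 1 of 12 genes of complexes that share LIN-53, and 0 of 12 E2F paralogues and regulators of the G1 to S transition. The share over all protein-coding genes was 5.29%, and nothing is read from counts of 0 or 1 in lists this short. The class A gene was lin-56, with a peak 424 bp past its start, in its 5′ UTR, that was 90.6 high (43.1 and 47.1 in the replicates). The LIN-53 partner list was represented by rba-1, the close paralogue next to lin-53, whose window takes in the lin-53 peak; it is the same peak counted again. The median of the tallest ranked summit was 74.9 over the DREAM genes, 51.0 over class A, 50.8 over the LIN-53 partners, 48.8 over other class B genes, 40.1 over the E2F and G1 to S list, and 33.97 over all protein-coding genes. Genes without a ranked summit counted as 0, and 3 of the other class B genes are also in the LIN-53 partner list. Lacking a conservative summit did not always mean a lower signal value. Each related list held a gene without one whose tallest ranked summit was above the 61.4 of lin-52, up to 76.8 in the E2F and G1 to S list. These counts describe a list drawn up with its peaks known and were not tested.

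**Figure D4:**
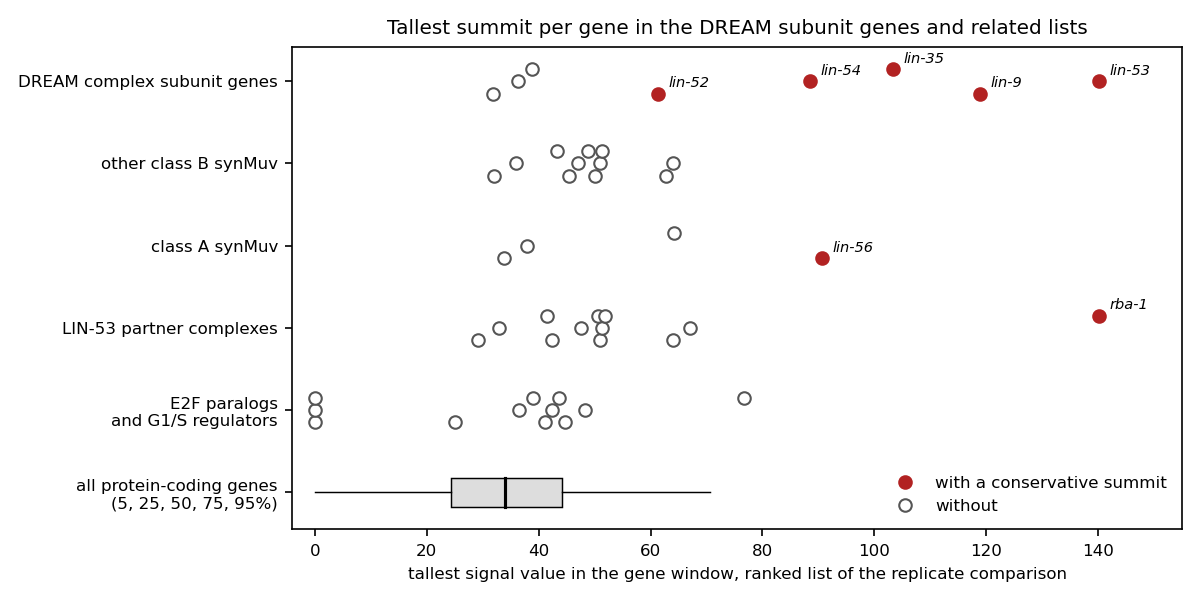
Each circle is the tallest signal value in the window of 1 gene, in the ranked list of the replicate comparison, by gene list down the page, filled where the window holds a conservative summit; circles at 0 are genes with no ranked summit. The box and line at the bottom give the 5th, 25th, 50th, 75th and 95th percentiles of all protein-coding genes, whose upper end is 70.6; 4 DREAM genes lie above it, lin-52 lies at 61.4 and the 3 unfilled DREAM circles are between 31.9 and 38.8.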

How the data were processed

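ChIP-seq peaks were read from 8 deposited lists, 4 thresholded and 4 ranked, on ce11 per the labels. The authors deposited a signal value for each peak, on an unstated scale, and in the ranked lists the −log10 of the global IDR. The aligner, the peak caller and the scaling are not stated in the labels or file headers used; a possible control that the labels name was not analysed here. Of 120 columns, 74 were not used. Nothing was rescaled.

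Gene models were from Ensembl release 115. The start is the outer end of the gene model, and a gene counts when a summit lies in its window. Windows, nearest starts, replicate values, words in the sequence and gene lists were computed with Python 3.11.15, pandas 2.3.3, numpy 2.4.6 and matplotlib 3.10.9, and the window search was tested on simulated peaks. The genes named are the 8 listed ones, genes that start within 2000 bp upstream of them or are nearest to a thresholded summit, related-list members with a conservative summit, and the 2 genes most like each. T05F1.2, T23G7.2 and C32F10.4 were added after their values were seen. The members and lists were chosen with earlier results of these data known. The mean ± SD is over the 2 replicate columns. Alternatives were other lists, a stricter IDR, other windows and overlaps, and all annotated genes.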

Additional observations from a re-analysis of the deposited data

How the results depend on the processing

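The count of 5 DREAM genes with a conservative summit was also 5 with any base or the whole peak in the window and with a shorter (1000 bp) or longer reach upstream. It was 4 in the pooled list, between 2 and 3 when either replicate was left out (the list of the other replicate alone), and 3 at a −log10 IDR of 3 or more, which leaves 387 peaks. At transcript starts the count of 5 became 3 in the pooled list, 2 with either replicate left out and 2 at the stricter IDR; the upstream lin-35, distal lin-52 and lin-54 peaks are absent from the pooled list, where lin-52 counts through its proximal peak. The share of protein-coding genes, 5.29%, was 2.20 to 2.46% with a replicate left out, 2.22% at the stricter IDR and 3.39% over all annotated genes. Of 32 alternatives for the tallest value of a single gene, 30 kept it within the SD of its replicate columns. The other 2 gave 72.4 for lin-35, because its 3′ peak runs past the gene end or lies outside a window cut short after the start. Apart from lin-52 in the pooled list, the 30 read the same peak again, so the value could not change. Settings that left out a replicate, or in which the gene had no peak, were not counted. The 30 therefore do not measure how stable the heights are. No paired analysis was possible because there is 1 group. Without read counts or a control, depth and background at these sites are unknown, and peaks near 2 starts cannot be given to either gene.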
